A study of Rattus norvegicus with 32 samples.

Results

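Of 32 RNA sequencing libraries of rat brain, 10 carried transcripts of liver, and these 10 liver libraries are described here. They were chosen by 1 measured value: an Alb level (the gene of serum albumin) of 20 CPM or more, where CPM is the count divided by the total of the library and scaled to a common size. They are set against 12 comparison libraries, with Alb under 20 CPM and Plin1, the lipid droplet coat protein of fat cells, under 5 CPM. The other 10 libraries had Plin1 of 5 CPM or more and Alb under 20 CPM, and are called the fat libraries. The lowest Alb among the liver libraries was 32.4 CPM, and the highest outside them was 9.31 CPM, so no library lay near the threshold.

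The study gave rats foot shocks paired with a lemon odour (the anxiety cue) or with a neutral cue, treated them with cannabidiol (CBD) or vehicle before anxiety tests, and sampled the nucleus accumbens shell. This gave 4 groups of 8 libraries: 2 groups had CBD (1 with the anxiety cue, 1 with the neutral cue) and 2 had vehicle (1 with each cue). All are labelled as wild type (WT) and as brain, and the shocks and the tests were common to the 4 groups. The labels give no age, sex, batch or animal for a library, so p-values here measure the spread between these libraries, which may be technical. Totals ran from 15266971 to 24002424 counts in the liver libraries and from 11651537 to 20295781 in the comparison libraries. The summed level of 12 genes of medium spiny neurons, the main cell of this region, ran from 5664 to 8672 CPM in the liver libraries and from 1781 to 9327 CPM in the comparison libraries, so transcripts of these neurons were present in all of them. The summed level of 4 genes of cortical glutamatergic neurons ran from 3.17 to 70.6 CPM in the liver libraries. In the comparison libraries it ran from 4.05 to 1008 CPM (median 8.45), so that set was not uniform in tissue. The Y-linked genes Eif2s3y and Kdm5d had at least 32.2 and 30.1 CPM in each of the 32 libraries.

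Hepatocytes make most proteins of blood plasma, among them albumin, the clotting factors, the complement proteins and the apolipoproteins. They turn ammonia into urea, break down amino acids, make glucose, and oxidise and conjugate drugs and steroids. Brain tissue makes a few of the same proteins, such as transferrin, but not the set as a whole. Much of the hepatocyte programme is driven by transcription factors of the HNF families, and the site of HNF1 holds the letters GTTAAT.

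Alb and Fgb, the gene of the fibrinogen beta chain, are both among the genes by which the liver signal was recognised, and the 250 bases before their start sites each hold these letters once, on opposite strands. They are given 5′ to 3′ in the direction of the gene, with GTTAAT or its reverse complement ATTAAC in capitals, from RefSeq on the build GRCr8 at chr14:17906980-17907229 (minus strand) for Alb and chr2:170700876-170701125 (minus strand) for Fgb.
Alb: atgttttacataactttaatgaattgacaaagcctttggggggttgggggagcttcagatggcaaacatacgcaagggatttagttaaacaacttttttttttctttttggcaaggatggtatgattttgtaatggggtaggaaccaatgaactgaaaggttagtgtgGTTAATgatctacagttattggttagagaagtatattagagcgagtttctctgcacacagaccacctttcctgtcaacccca
Fgb: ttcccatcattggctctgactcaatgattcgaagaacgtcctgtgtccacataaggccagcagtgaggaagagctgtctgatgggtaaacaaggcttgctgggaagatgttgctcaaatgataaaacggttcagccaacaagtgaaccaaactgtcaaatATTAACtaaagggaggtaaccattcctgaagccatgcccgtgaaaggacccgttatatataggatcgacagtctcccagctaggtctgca
Searched on both strands, the letters stood in the same window of 29 of the 150 searched genes of the hepatocyte list (19.3%), against 1959 of 27457 RefSeq gene symbols (7.13%). The other listed genes are not in this count, though 192 of the list had a match in RefSeq. A match is a run of letters and no measure of binding.

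The 4 markers named for these libraries were all present together. Alb had 225.6 CPM in CBD neutral-cue library 3, where it was highest, 98.2 CPM in CBD neutral-cue library 4, 92.4 CPM in CBD neutral-cue library 1 and 49.1 CPM in CBD neutral-cue library 2. In the CBD anxiety-cue libraries 3, 4, 5 and 6 it had 33.7, 83.3, 42.6 and 107.8 CPM. The remaining pair, vehicle anxiety-cue libraries 1 and 4, had 32.4 and 81.3 CPM. Alb in the comparison libraries ranged from 1.24 to 9.31 CPM with a median of 4.85. The exact 95% interval of counting error was 30.0 to 34.9 CPM for the lowest liver library and 8.03 to 10.7 CPM for the highest comparison library. Such intervals cover counting error alone.

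Hpx, the gene of the haem carrier hemopexin, ranged from 21.1 to 319.3 CPM in the liver libraries (median 63.2) and from 0.53 to 4.55 CPM in the comparison libraries (median 1.94). Fgb ranged from 13.1 to 79.2 CPM in the liver libraries (median 42.1) and from 0.057 to 2.84 CPM in the comparison libraries (median 1.27). Cps1, the first enzyme of the urea cycle, ranged from 8.50 to 160.8 CPM in the liver libraries (median 30.6) and from 0.44 to 4.21 CPM in the comparison libraries (median 1.72). None of these ranges overlapped. The lowest liver library was vehicle anxiety-cue library 1 for Hpx and Fgb and CBD anxiety-cue library 3 for Cps1, and CBD neutral-cue library 3 was the highest for all 3 genes. In tissue samples like these, few cells of a type and little RNA per cell cannot be told apart.

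The libraries carry plain numbers as titles, from 4 to 47. Put in the order of these numbers, the first 20 libraries, with titles up to 30, alternated without exception between a fat library and a liver library: the 10 fat libraries took the odd places and the 10 liver libraries the even places. The 12 comparison libraries were the 12 titles from 31 upward. What the title numbers stand for is not given in the labels. The places are shared unequally by the groups: of the 10 even places among the first 20, each CBD group held 4, the vehicle group with the anxiety cue held 2 and the vehicle group with the neutral cue held 0.

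**Figure D1:**
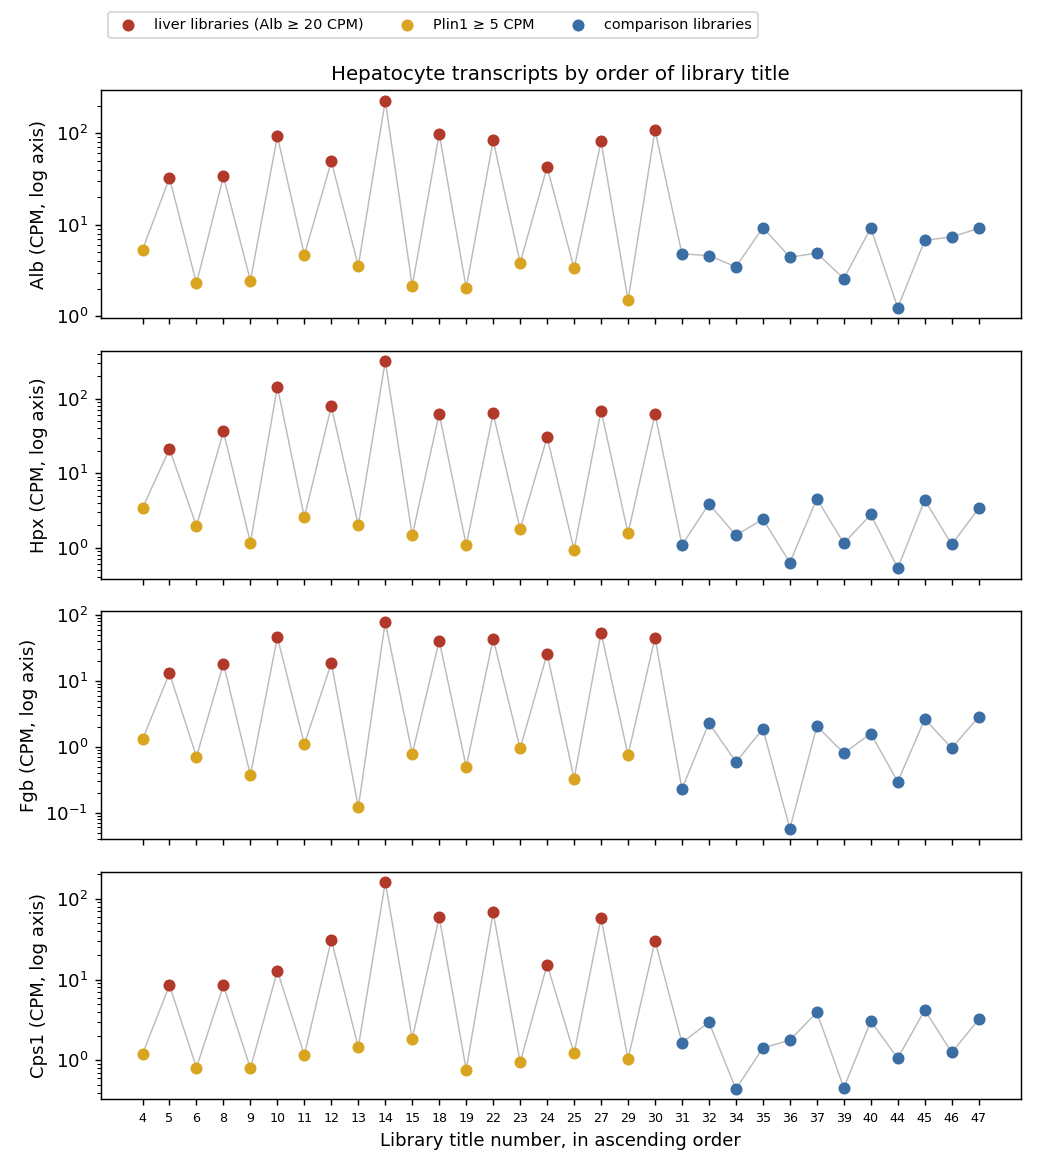
Level of Alb, Hpx, Fgb and Cps1 (CPM, log axis) in each of the 32 libraries, placed in ascending order of title number and coloured by set. Up to title 30 each library with Alb of 32.4 CPM or more comes right after a library with Plin1 of 5 CPM or more, and from title 31 on Hpx and Fgb still alternate at levels under 5 CPM.

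The alternation went on, at a far lower level, in the last 12 libraries, none of which had 20 CPM of Alb. Hpx had 2.41 to 4.55 CPM in the 6 libraries in even places and 0.53 to 1.47 CPM in the 6 in odd places. Fabp1, the fatty acid binding protein of liver and intestine, had 2.03 to 4.84 CPM in even places and 0.11 to 0.94 CPM in odd places. Fgb had 1.59 to 2.84 CPM in even places and 0.057 to 0.96 CPM in odd places. Of the 194 listed hepatocyte genes in the table, 21 (10.8%) were higher in all even places than in all odd places, where 35 of 26775 genes with a count in these libraries (0.131%) were higher and 10 (0.0373%) were lower. Besides Hpx, Fabp1 and Fgb they include Fga and Fgg, F2 (prothrombin), Serpinc1 (antithrombin), Tdo2, Mat1a and Cyp2e1, and 21 of the 35 genes were also among those without overlap between liver and comparison libraries. Alb itself overlapped, with 4.61 to 9.31 CPM in even places and 1.24 to 7.38 CPM in odd places, and so did Cps1, with 1.43 to 4.21 CPM against 0.44 to 1.78 CPM. The comparison libraries thus held low levels of the same transcripts, and each fold against them is measured on that background. The alternation was noticed after the values were seen and is given as a description, with no test.

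Across all genes, 98 were higher in each of the 10 liver libraries than in each of the 12 comparison libraries, which is 0.348% of 28176 genes with a count in these libraries, and 0 were lower. Of the 98, 43 belong to the list of 194 hepatocyte genes (22.2% of the list). Alb chose the libraries, so these counts describe the contrast and test nothing. Of the remaining 55 genes, 14 carry only a locus number and 41 have a gene name, among them the enzymes Agxt2 (a mitochondrial aminotransferase), Kynu (kynureninase), Haao (of the same pathway), Bhmt2, Upp2, Dio1 (deiodinase 1) and Cpb2 (a carboxypeptidase of plasma). A smaller set of 16 of the 98, 12 of them locus numbers, was also higher in each fat library than in each comparison library. The liver and fat libraries are the 20 with titles up to 30, and the comparison libraries are the 12 later ones. By definition, then, the same 16 were higher in all 20 than in all 12, which is no second observation. Among the named ones are Ces1d, a carboxylesterase of liver and fat, and the ribosomal protein copies Rpl31l1 and Rpl34l1.

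Among the 98 genes without overlap, the 15 with the largest excess were led by Hpx, Alb and Rbp4, and not all are named. Summed over the libraries of a set, Hpx stood at 83.4 CPM in liver and 2.26 CPM in comparison libraries (a pooled fold of 36.9), and Alb at 80.9 and 5.75 CPM (14.1-fold). Rbp4, the carrier of retinol, stood at 97.0 CPM in liver and 29.2 CPM in comparison libraries. Fabp1, Cps1, Fgb, Tdo2 (the first enzyme of tryptophan breakdown), Cyp2e1 (a cytochrome P450 that oxidises ethanol) and Serpinc1 came among the next, at 45.5 to 27.6 CPM in liver and 2.11 to 0.98 CPM in comparison libraries. Cyb5a (cytochrome b5), Uox (urate oxidase), Gnmt (glycine N-methyltransferase), F2 and Rgn (regucalcin) closed the 15. By fold, within the same 98, the order was another: Agxt2 was 80.9-fold higher and Fgl1, a fibrinogen-like protein secreted by liver, 70.9-fold, from 0.025 and 0.035 CPM in comparison libraries. Agxt2 and Fgl1 had only 5 and 7 counts in the comparison libraries. Cyp3a18 was 40.8-fold higher, Mat1a (the methionine adenosyltransferase of liver) 40.4-fold, F9 36.3-fold, F2 34.6-fold, C8a 33.8-fold and Ttc36 31.9-fold. CBD neutral-cue library 3 gave 1862 of the 3651 Mat1a counts and 1785 of the 4071 F2 counts of the liver libraries. Such pooled values lean on that library: the median of Mat1a over the liver libraries was 12.0 CPM, its pooled level 18.8 CPM. Over 160 listed genes with more than 3 counts in each set the median pooled fold was 4.15, beside 1.01 over the 22935 genes with more than 3 counts in each set.

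**Figure D2:**
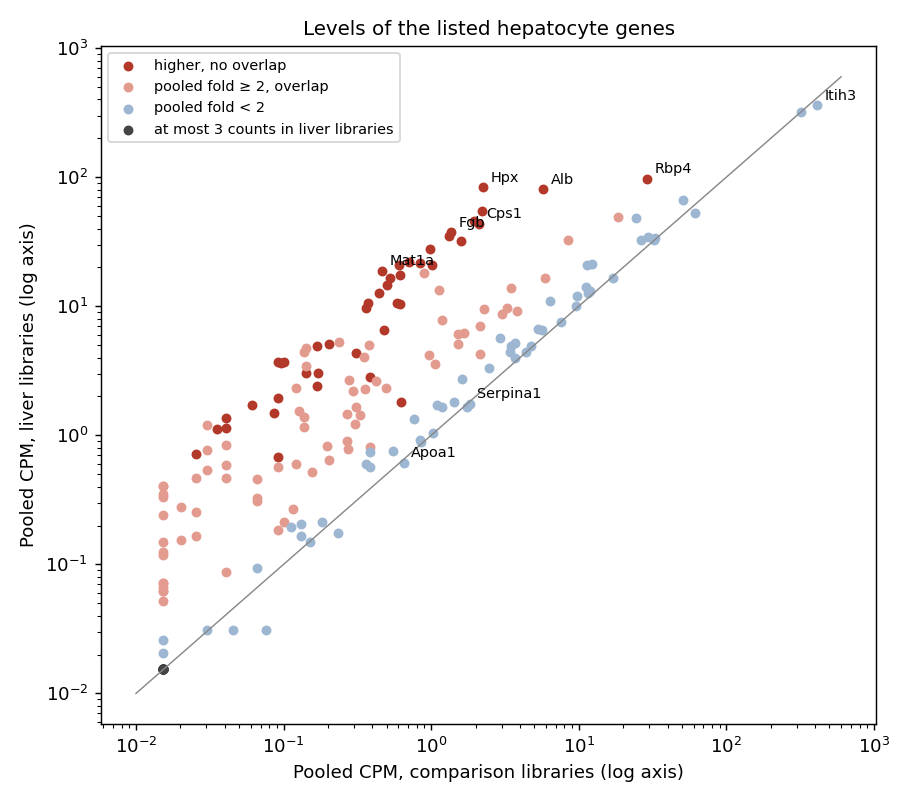
Pooled level of the 194 listed hepatocyte genes in the liver libraries (vertical, CPM, log axis) against the comparison libraries (horizontal, CPM, log axis), each point a gene, with levels under 3 counts drawn at 3 counts and the line marking equal levels. Hpx, Alb, Fgb, Cps1 and Mat1a lie far above the line, while Apoa1, Serpina1 and Itih3 lie on it or just below it.

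The list was not raised as a whole. Of its 194 genes, 43 showed no overlap, 77 had a pooled fold of 2 or more with overlapping ranges, 56 had a pooled fold under 2, and 18 had at most 3 counts over the 10 liver libraries together, of which 10 had 0 counts in all 32 libraries. For a gene with fewer than 3 counts in the comparison libraries, the fold was taken against a floor of 3 counts over the set. Genes with a high level in the comparison libraries can hide an added liver share, so a fold under 2 is not absence.

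Among clotting genes, 9 of 18 showed no overlap. The fibrinogen chains Fgb, Fgg and Fga stood at 37.5, 17.4 and 9.76 CPM in liver libraries and at 1.37, 0.61 and 0.36 CPM in comparison libraries. Serpinc1, which inhibits thrombin, stood at 27.6 CPM in liver and 0.98 CPM in comparison libraries, and F2 at 21.02 and 0.61 CPM. Plg (plasminogen), Serpind1 (heparin cofactor II), F9 and F13b made up the rest. The kininogens, the plasma precursors of bradykinin, were missing: Kng1 had 0 counts and Kng2 had 1 count in the liver libraries.

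Carrier proteins of plasma divided in the same way, with 6 of 24 without overlap and 5 missing. Besides Hpx, Alb and Rbp4, the genes without overlap were Azgp1 (zinc-alpha-2-glycoprotein) at 10.4 CPM in liver and 0.61 CPM in comparison libraries, Gc (the vitamin D binding protein) at 4.91 and 0.17 CPM, and Itih2 at 2.40 and 0.17 CPM. Ahsg (fetuin A), Fetub (fetuin B), Orm1 (orosomucoid) and Hrg (histidine-rich glycoprotein), all secreted by liver in quantity, had 0 counts in the 10 liver libraries, and Obp3 had 1. Where the reads of a gene can be counted, a count of 0 allows a level of up to 0.0155 CPM (3 counts of the summed total). Alb stood at 80.9 CPM in the same libraries. Orm1 and Hrg had 0 counts in all 32 libraries, and Ahsg had 1. For these and the other missing genes, a lack of the transcript and a failure to count its reads cannot be told apart. Cp (ceruloplasmin) was 2.78-fold higher with overlap. Tf (transferrin) and Itih3, both high throughout, stood at 321 and 362 CPM in liver and at 319 and 413 CPM in comparison libraries.

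Protease inhibitors and acute phase proteins, 9 genes in the table, gave 1 gene without overlap, Mug1, an inhibitor of the alpha-2-macroglobulin family whose near-identical copies make its counts uncertain, at 1.14 CPM in liver and 0.041 CPM in comparison libraries. Pzp, of the same family, was 4.12-fold higher with overlap. Serpina1 (alpha-1-antitrypsin) stood at 1.76 CPM in liver and 1.84 CPM in comparison libraries. Crp (C-reactive protein) reached 23 counts and Apcs (serum amyloid P) 47 counts over the 10 liver libraries, and Serpina3c and Saa4 had 0 counts in all 32 libraries.

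Complement gave 1 gene of 15 without overlap, C8a, at 1.37 CPM in liver and 0.041 CPM in comparison libraries. C3, the central component, was 3.86-fold higher with overlap, at 32.7 CPM in liver and 8.47 CPM in comparison libraries, and stood at 24.3 CPM in the fat libraries. C5 was 7.48-fold higher with overlap. Cfi, C4bpa and Mbl2 were at comparison level, with 29, 6 and 6 counts in the liver libraries, and C9 had 13 counts.

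Apolipoprotein and lipid genes gave 6 of 20 without overlap and 0 missing. Apob, the structural protein of VLDL, stood at 14.6 CPM in liver and 0.50 CPM in comparison libraries and showed no overlap, like Fabp1, Pon1 (paraoxonase 1) and Baat (the enzyme that conjugates bile acids). Apoc4, at 2.82 CPM in liver and 0.39 CPM in comparison libraries, was the one other apolipoprotein without overlap. Apoa1, the main protein of HDL, stood at 0.61 CPM in liver and 0.65 CPM in comparison libraries. Apoc1 stood at 4.42 CPM in both, Apoh at 0.60 and 0.36 CPM, and Apoa2 and Apoc3 had 17 and 30 counts over the 10 liver libraries.

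In the urea cycle, Cps1 and Otc (ornithine transcarbamylase) showed no overlap, Otc at 10.6 CPM in liver and 0.37 CPM in comparison libraries. Arg1 was 2.87-fold higher with overlap, Ass1 1.97-fold, and Asl and Nags stood at 12.8 and 1.73 CPM in liver and at 11.5 and 1.09 CPM in comparison libraries. Amino acid breakdown gave 6 of 19 genes without overlap: Tdo2 at 34.7 CPM in liver and 1.32 CPM in comparison libraries, Uox at 22.0 and 0.70 CPM, Gnmt at 21.5 and 0.85 CPM, Mat1a at 18.8 and 0.47 CPM, then Bhmt and Hao1. A further 10 of the 19 had a fold of 2 or more with overlap, among them Tat (tyrosine aminotransferase) and Agxt, which had 114 counts. Of 13 genes of glucose and alcohol metabolism, none stayed under a fold of 2: 3 showed no overlap, among them Rgn and Adh4, and G6pc1 (glucose-6-phosphatase) and Fbp1 were 39.4-fold and 32.3-fold higher with overlap. Pck1, of gluconeogenesis, was 11.8-fold higher with overlap in liver libraries and also stood at 10.7 CPM in the fat libraries, against 1.13 CPM in comparison libraries.

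The cytochromes P450 held the largest number of missing genes, 8 of 26. Cyp2e1 stood at 32.1 CPM in liver and 1.59 CPM in comparison libraries, and also at 7.98 CPM in fat libraries. Cyp3a18, Cyp1a2, Cyp2a1 and Cyp7a1, the rate-limiting enzyme of bile acid synthesis, showed no overlap at 0.72 to 3.72 CPM in liver and 0.025 to 0.14 CPM in comparison libraries. Cyp2c11, the main P450 of the male rat liver, had 0 counts in the liver libraries and 3 counts in all 32, and Cyp2c12, its counterpart in females, had 0 counts in all 32. Cyp3a2, Cyp2b1, Cyp2b3 and Cyp4a2 had 0 counts in all 32 libraries, and Cyp2c6v1 and Cyp2b2 had 1 count each in the liver libraries. These genes have near-identical copies, and their counts are uncertain because the treatment of reads shared by copies is not stated in the labels. Conjugation enzymes gave 1 of 18 without overlap, Ces1d, at 4.37 CPM in liver, 5.48 CPM in fat and 0.31 CPM in comparison libraries, and Sult2a1 had 0 counts.

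Transporters gave 3 of 14 without overlap, among them Abcb11 (the bile salt export pump) and Slco1b2 (an organic anion transporter), at 3.04 and 1.49 CPM in liver and 0.17 and 0.086 CPM in comparison libraries. Both chains of the asialoglycoprotein receptor were low, with Asgr1 at 0.90 CPM and Asgr2 at 0.57 CPM in liver libraries and at 0.27 and 0.39 CPM in comparison libraries. None of 12 transcription factors was without overlap. Hnf4a, a central regulator of hepatocyte genes, was 24.2-fold higher with overlap, at 3.43 CPM in liver and 0.14 CPM in comparison libraries. Creb3l3 and Nr1i2 were 10.2-fold and 8.49-fold higher with overlap, and Cebpa, also a fat cell factor, stood at 21.03 CPM in liver, 25.5 CPM in fat and 11.4 CPM in comparison libraries.

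**Figure D3:**
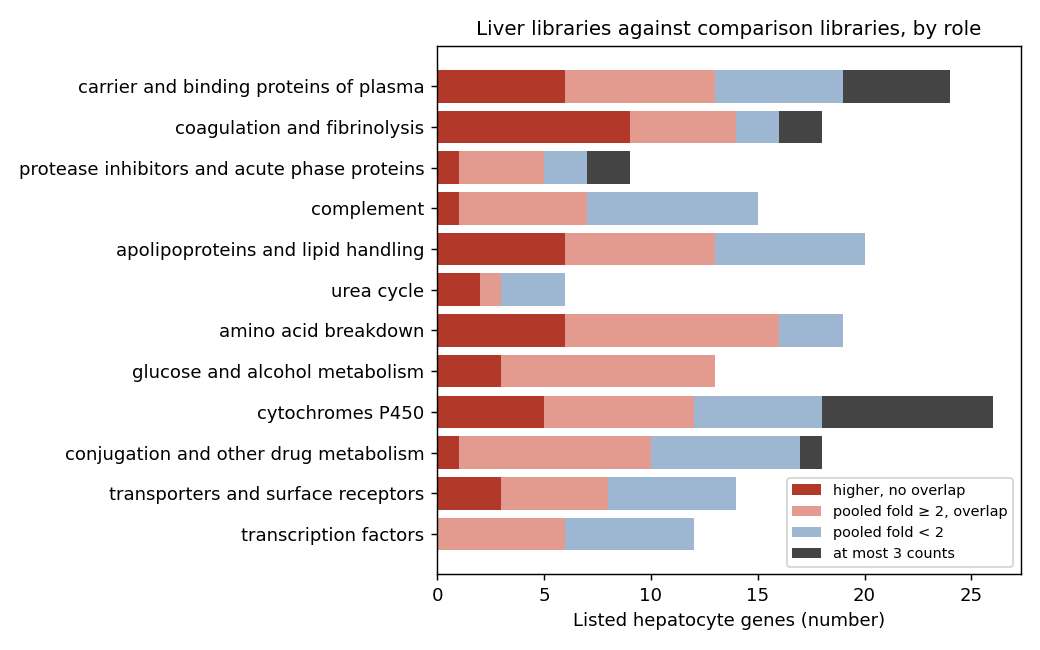
Number of listed hepatocyte genes per role (horizontal), divided by how the liver libraries stood to the comparison libraries. Clotting factors have the largest share without overlap (9 of 18), glucose and alcohol metabolism has no gene under a fold of 2, transcription factors have none without overlap, and missing genes lie among carriers, clotting factors, protease inhibitors, conjugation enzymes and cytochromes P450 (8 of 26).

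Markers of other cells that liver holds were low, and some were higher in the liver libraries. The summed level of 5 markers of liver macrophages ran from 0.047 to 0.74 CPM in liver (median 0.17) and from 0 to 0.34 CPM in comparison libraries (median 0.028). Clec4f had 19 counts in liver and 2 in comparison libraries, Marco had 8 and 0, and Vsig4 had 0 and 1. The 5 bile duct markers summed to 2.06 to 3.93 CPM in liver and 1.72 to 4.01 CPM in comparison libraries. Anxa13, one of them, had 15 counts in liver and 5 in comparison libraries. Clec4g, of liver sinusoidal endothelium, was the one marker of these cells without overlap, 5.77-fold higher at 0.61 CPM in liver and 0.11 CPM in comparison libraries, and Oit3 of the same cells was 2.21-fold higher with overlap. Colec11, listed for stellate cells, was 2.28-fold higher with overlap, and the 5 stellate cell markers summed to 7.80 to 16.6 CPM in liver and 5.86 to 12.4 CPM in comparison libraries. The 10 fat cell markers summed to 40.5 to 46.9 CPM in liver and 35.9 to 50.5 CPM in comparison libraries, and Plin1 did not pass 1.73 CPM in any liver library. Of 7 intestine markers in the table, 3 had a pooled fold of 2 or more. Fabp2, at 1.08 CPM in liver and 0.076 CPM in comparison libraries, showed no overlap. Higher with overlap were Apoa4, at 0.95 and 0.020 CPM, and Lgals4, with 13 counts in liver and 2 in comparison libraries. Kidney markers summed to 2.28 to 4.47 CPM in liver and 2.07 to 4.13 CPM in comparison libraries, with Kap at 0 counts. No marker of kidney, pancreas, muscle, heart, lung, testis, choroid plexus or meninges was without overlap. A pooled fold of 2 or more was reached by 1 of 8 pancreas and 2 of 6 choroid plexus markers, and by 0 in the other lists just named. Choroid plexus markers summed to 3.18 to 23.2 CPM in liver and 4.83 to 8.53 CPM in comparison libraries. Meninges markers summed to 17.4 to 37.4 CPM in liver and 11.5 to 25.3 CPM in comparison libraries. Alas2, of haem synthesis in red cells, was higher with overlap, at 5.02 CPM in liver and 1.92 CPM in comparison libraries, while the globin gene Hba-a1 stood at 72.4 CPM in liver and 85.2 CPM in comparison libraries.

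The liver genes did not keep 1 ratio to each other from library to library. Among 13 genes for which it was computed, Fgb varied least relative to Alb: its count divided by the Alb count ran from 0.351 to 0.667 over the 10 liver libraries, with an SD of 0.305 on the log2 scale around a median of -1.12. Hpx divided by Alb was 1.58, 1.62 and 1.42 in CBD neutral-cue libraries 1, 2 and 3 (titles 10, 12 and 14) and at most 1.08 in the other 7 libraries. Mat1a divided by Alb was 0.447 and 0.508 in CBD neutral-cue libraries 2 and 3, and at most 0.204 in the other 8, with a lowest value of 0.0575. Cyp2e1, F2 and Serpinc1 were also highest relative to Alb in those 2 libraries. Apob was lowest there, at 0.0795 and 0.106 of Alb, against 0.372 of Alb in CBD neutral-cue library 1. Fabp1 relative to Alb was highest in vehicle anxiety-cue library 1, at 1.27, and lowest in CBD neutral-cue library 4, at 0.272. Cps1 divided by Alb ran from 0.138 to 0.817, lowest in CBD neutral-cue library 1. Over the 10 liver libraries, which share the choice by Alb, Pearson's r of the log2 level with that of Alb was 0.937 for Fgb, 0.867 for Hpx and 0.823 for Cps1. By rank (Spearman) the correlation with Alb was lower, at 0.806 for Fgb, 0.636 for Hpx and 0.685 for Cps1.

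**Figure D4:**
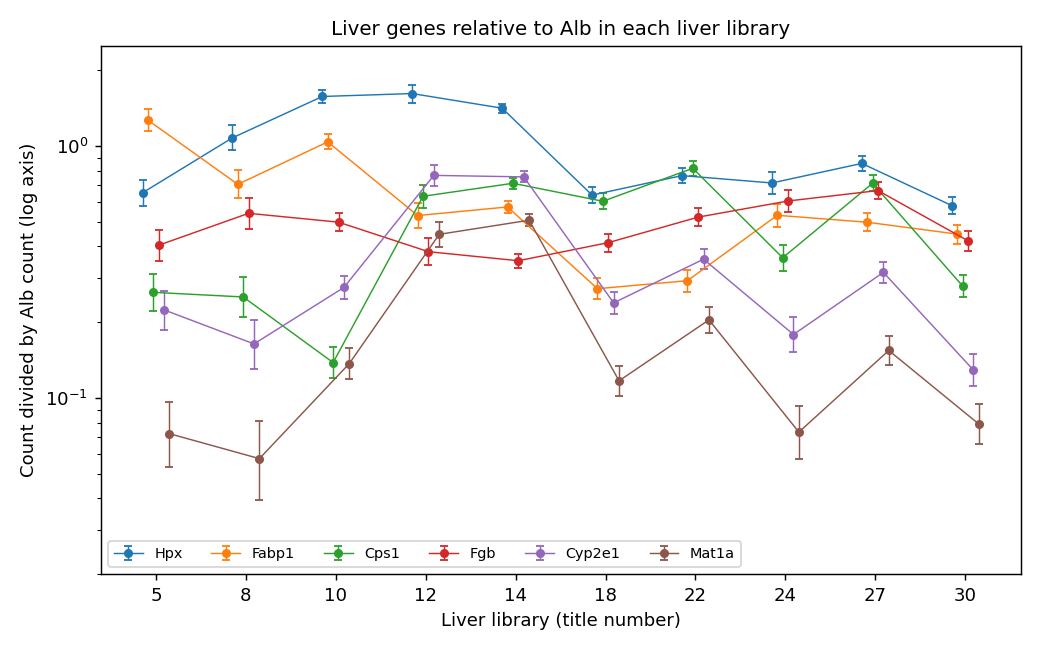
Count of 6 liver genes divided by the Alb count (log axis) in each of the 10 liver libraries, in order of title number, with exact 95% intervals of counting error as bars. Mat1a and Cyp2e1 are highest in titles 12 and 14, Hpx in titles 10, 12 and 14, and Fgb stays between 0.351 and 0.667.

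Whether drug or cue went with the liver transcripts was asked of the number of libraries and of each gene. Liver libraries numbered 8 of 16 with CBD and 2 of 16 with vehicle (Fisher's exact test, 2-sided, p = 0.0538), and 6 of 16 with the anxiety cue and 4 of 16 with the neutral cue (p = 0.704, the same exact test). By group they numbered 4 of 8 in each CBD group, 2 of 8 in the vehicle group with the anxiety cue and 0 of 8 in the vehicle group with the neutral cue. This split was known from earlier results, and neither difference passed 0.05.

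Under the neutral cue, Alb was higher on average with CBD than with vehicle, but it did not pass the adjusted threshold. Its log2 fold change was 3.94 (SE 0.97, edgeR's quasi-likelihood test, Benjamini-Hochberg adjusted p = 0.0697), with Alb from 1.24 to 225.6 CPM in the 8 CBD libraries and from 2.04 to 9.31 CPM in the 8 vehicle libraries, which overlap. Hpx had a log2 fold change of 5.29 (SE 1.21), and the 2 listed genes with the smallest p were Hsd17b13 (a lipid droplet enzyme) at 2.01 and Itih2 at 4.54. Of 119 listed genes tested, 103 had a log2 fold change above 0 and the median was 1.58, beside a median of 0.01 over all 17059 genes tested. By edgeR 0 listed genes and 0 of all genes were called (0% in each direction). At an unadjusted p under 0.05 there were 81 listed genes, where 22.6% of all genes reached it. DESeq2 called 57 listed genes, all higher, where it called 1.1% of all genes as higher. Without vehicle anxiety-cue library 4 edgeR called 25 listed genes, all higher, of 68 genes called in all (0.397%). Without vehicle anxiety-cue library 5 it called 33 listed genes, all higher, of 165 called in all (0.963%).

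In these groups drug and place in the title order cannot be told apart up to title 30: all 4 CBD neutral-cue libraries there stood in even places and all 5 vehicle neutral-cue libraries in odd places. Terms for odd or even place, for titles up to 30 and for both together were added after the data were seen. Both together mark exactly the 10 liver libraries, which Alb chose, so a smaller change in Alb was built in. With these terms the log2 fold change was 0.59 for Alb (SE 0.44, edgeR adjusted p = 0.778) and 1.15 for Hpx (SE 0.50, same adjusted p). The median over the 119 listed genes was 0.51. These values do not separate drug from title order. The number at an unadjusted p under 0.05 was then 9 of 119 (7.56%), where 5.12% of all genes reached it. Without the 10 liver libraries the log2 fold change of Alb was 0.25 (edgeR adjusted p = 0.837). Each library with Alb of 20 CPM or more was then left out, so this value was bounded by the choice and decides nothing about the drug. In the same fit 23 of the 94 listed genes tested (24.5%) reached an unadjusted p under 0.05, where 14.5% of all genes did.

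**Figure D5:**
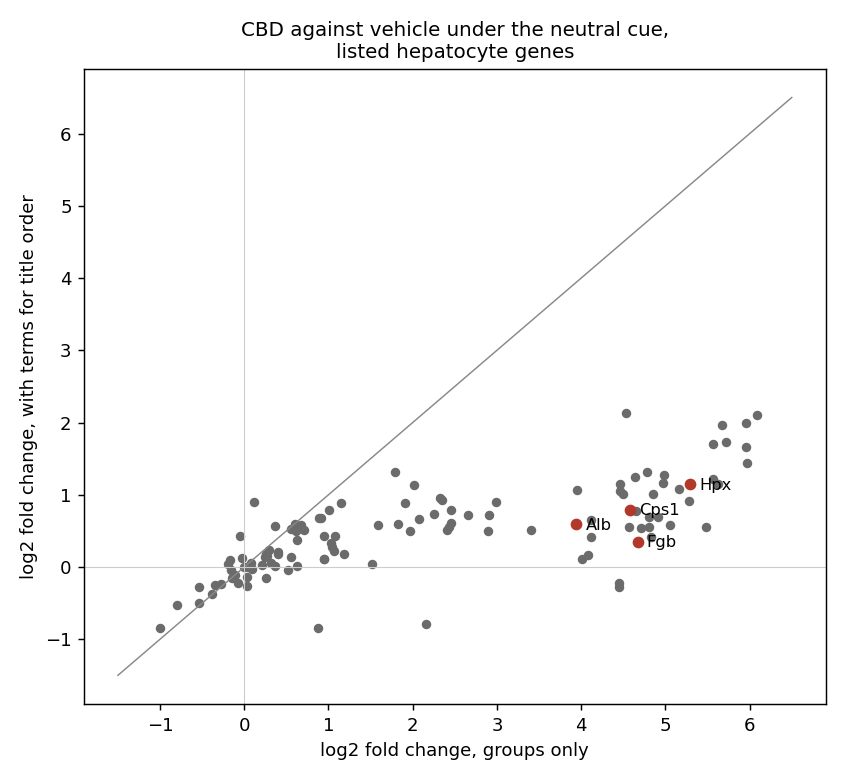
log2 fold change of the 119 tested hepatocyte genes for CBD against vehicle under the neutral cue, from a model with the groups alone (horizontal) and with added terms for title order (vertical); each point is a gene and the line marks equal values. Alb stands at 3.94 without and 0.59 with the terms, Hpx at 5.29 and 1.15. The terms together mark the liver libraries, which Alb chose, so the lower value of Alb was built in.

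Averaged over both cues, CBD against vehicle gave Alb a log2 fold change of 2.47 (SE 0.64, edgeR adjusted p = 0.271). With the title terms, which mark the liver libraries, the change of Alb was 0.35. The listed genes with the smallest p were Hsd17b13 at 1.18, Hpx at 3.13 and F9 at 3.52. The median over the 119 listed genes was 0.90, with 102 above 0, beside 0.0005 over all genes. Again 0 genes were called by edgeR (0% in each direction), 70 listed genes had an unadjusted p under 0.05, where 7.27% of all genes did, and DESeq2 called 4 listed genes, where it called 0.0352% of all genes as higher and 0.041% as lower. Without vehicle anxiety-cue library 4, edgeR called 33 listed genes, all higher, of 61 genes called in all (0.356%).

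Under the anxiety cue, CBD against vehicle gave Alb a log2 fold change of 0.99 (SE 0.85, edgeR adjusted p = 0.9999) and the list a median of 0.26, and 0 listed genes had an unadjusted p under 0.05, where 1.58% of all genes did. Apom, Gsta1 and Asl had the smallest p there, at 0.43, -0.23 and 0.20. The difference between the CBD effects with the anxiety cue and with the neutral cue, tested as an interaction, was -2.95 for Alb (SE 1.25, edgeR adjusted p = 0.336). The list median of the interaction was -1.30, with 19 of 119 above 0, and 56 listed genes had an unadjusted p under 0.05, where 13.8% of all genes did. Uroc1, Itih2 and F2 had its smallest p, at -5.35, -4.04 and -5.05. The anxiety cue against the neutral cue, averaged over both drugs, gave Alb 0.72 (SE 0.62, edgeR adjusted p = 0.9997) and the list a median of -0.05. Hp, Pck1 and Abcb4 had the smallest p, at -0.91, -1.59 and -0.28, and 7 listed genes had an unadjusted p under 0.05, where 3.63% of all genes did. With the title terms this cue comparison gave Alb -0.13 and the list a median of -0.33, with 17 of 119 above 0. In that fit 29 of 119 listed genes (24.4%) had an unadjusted p under 0.05 by edgeR, where 3.60% of all genes did. The cause was not tested. In these 3 comparisons edgeR called 0 genes in each direction (0%). DESeq2 called 0 listed genes in them, where it called 0.0528% of all genes as higher and 0.0117% as lower for the interaction. Comparisons that use the same groups share libraries and are not independent of each other.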

How the data were processed

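The values are whole-number counts of reads per gene that the authors deposited for 34322 gene symbols in 32 libraries. The submitters' processing notes name STAR, featureCounts and DESeq2 and, as genome builds, Rnor_6.0 and mRatBN7.2, without versions or roles. RNA was polyA selected, per the labels' protocols. Use of strand in counting: not given in the sources used here. Counts were divided by the library total (11651537 to 24002424) to give CPM. Pooled levels are summed counts over summed totals. edgeR 4.0.16 in R 4.3.3 (TMM, filterByExpr by group, quasi-likelihood test over 4 groups, Benjamini-Hochberg over 17059 genes, threshold 0.05) tested drug and cue; DESeq2 1.42.0 was an alternative. Each SE is the absolute log2 fold change divided by the square root of the F statistic of edgeR's test. It is an approximation and not an output of edgeR. Scripts were tested on simulated data. Of the 197 listed symbols, 194 are in the table, and Serpina3k, A1i3 and Ugt2b1 are not analysed here. The list members, lists and the choice of libraries were made with earlier results of these data known. Named genes follow a rule by pooled excess, fold, role and smallest p, and some that it picks are not reported here. Genes outside it, such as Haao and Dio1, were chosen after their values were seen. Replicate numbers follow deposition order and pair nothing. No libraries held identical counts.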

Additional observations from a re-analysis of the deposited data

Results flagged for a closer look

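Each value below lies apart from the rest of its group by Dixon's criterion at the 95% level, looked at in 25 combinations of a measure and a group. Chance flags about 1 in 20 such groups where the values are normally distributed and the groups are independent. Here the measures share the liver signal, some groups mix liver libraries with others, and Alb chose the liver libraries, so that rate need not hold. CBD neutral-cue library 3 stood apart both in its group and among the 10 liver libraries, with 225.6 CPM of Alb, 319.3 CPM of Hpx, 160.8 CPM of Cps1 and a summed level of 5491 CPM over the hepatocyte list without Alb. Vehicle anxiety-cue library 4 stood apart in its group, with 81.3 CPM of Alb, 69.5 CPM of Hpx, 54.2 CPM of Fgb and 58.0 CPM of Cps1. CBD anxiety-cue library 4 stood apart in its group with 68.1 CPM of Cps1. Among the vehicle neutral-cue libraries, which include no liver library, library 6 stood apart with 9.31 CPM of Alb, and library 7 with 4.55 CPM of Hpx and 3.95 CPM of Cps1.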

How the results depend on the processing

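The count of listed genes without overlap was 43. It was 83 with the 6 libraries of 50 CPM of Alb or more, 43 with a threshold of 10 CPM, 44 on TMM library sizes, 39 against all libraries under 20 CPM of Alb and 38 after thinning to the smallest total. Leaving out each liver library in turn gave 43 to 59. The threshold of 10 CPM picks the same liver libraries, so its count was fixed. With fewer liver libraries the count could not fall, and with more libraries set against them it could not rise. The median summed level of the list without Alb was 2144 CPM (2141 to 2147 CPM with each liver library left out) and 328 CPM over members under 1 CPM in the comparison libraries. In the comparison libraries these medians were 1137 and 22.9 CPM. The sum over the whole list overlapped, at 1316 to 5491 CPM in liver and 857 to 2010 CPM in comparison libraries, so much of it is not particular to the liver libraries. The log2 ratio of Fgb to Alb ran from -1.246 to -1.002 without each liver library. At 50 CPM of Alb, Fisher's exact test gave p = 0.172 for drug and p = 1 for cue. For CBD averaged over both cues edgeR called 0 listed genes, against 4 by DESeq2 and 0 to 33 with a library left out. For CBD under the neutral cue it called 0, against 57 by DESeq2, 7 of 139 (5 higher, 2 lower; 5.04%, where 15.7% of all genes were called) without the fat libraries and 0 to 33 with a library left out. For the interaction it called 0, against 2 of 139 (1.44%, where 8.40% of all genes were called) without the fat libraries. The cause was not tested. No other setting tried for these comparisons called a listed gene. No paired analysis was possible because the library titles are unique numbers that groups do not share.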
